A study of Mus musculus with 12 samples.

Results

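The transcripts of 8 genes that mark or serve the hormone-sensing luminal cell of the mammary gland were followed in 12 mouse breast tumours. They were taken by symbol from a table of 55487 genes: the receptor genes Esr1, Pgr and Prlr, the transcription factor genes Foxa1 and Gata3, the secreted signals Areg and Tnfsf11, and the transcriptional co-regulator gene Cited1. All 12 mice were C57BL/6J animals carrying MMTV-PyMT. This transgene places the polyoma middle T oncogene under the mouse mammary tumour virus promoter, which is active in mammary epithelium and itself responsive to steroid hormones. The 6 mice called Bad_WT had wild-type Bad. The 6 called Bad3SA carried a form of BAD, a pro-apoptotic BCL2 family protein, whose regulatory serines cannot be phosphorylated. Each tumour came from its own mouse and was collected at the end point, at 21.286 to 27.143 weeks in Bad_WT and 22.857 to 31.143 weeks in Bad3SA. The question was whether the hormone-sensing genes differ when BAD phosphorylation is blocked.

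Hormone-sensing luminal cells carry the oestrogen receptor (ESR1), the progesterone receptor (PGR) and often the prolactin receptor (PRLR). FOXA1 opens chromatin for ESR1, and GATA3 is needed to form and keep luminal cells. The receptor-positive cells release amphiregulin (AREG), a ligand of the EGF receptor, and RANKL (TNFSF11), which pass the hormone signal to receptor-negative neighbours. CITED1 binds ESR1 as a co-activator. PyMT tumours are known to lose steroid receptors as they progress.

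Depth ran from 58096172 to 83296370 counts per tumour, and 3 counts, the level below which a gene cannot be told from 0, equalled 0.0346 to 0.0544 CPM (counts scaled to library size). General luminal markers such as keratins 8 and 18 summed to 6034 to 7112 CPM in Bad_WT and 5292 to 7792 CPM in Bad3SA, so all 12 libraries held luminal RNA. A pair of Bad_WT tumours stood apart. Bad_WT 4 had 1189 CPM of skeletal muscle markers against 2.42 to 22.8 CPM in the other Bad_WT tumours, and 827 CPM of squamous keratinocyte markers against 9.24 to 17.6. Bad_WT 6 had the lowest summed T cell markers (4.10 CPM), fibroblast markers (308 CPM) and macrophage markers (353 CPM) of the 12 tumours and the highest summed proliferation genes (1115 CPM). Their part in the results was not tested, and the genotype fits were also made without both. In whole tumours, fewer cells of a type and less RNA per cell cannot be told apart.

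Compared per kilobase of exon, Gata3 was the most abundant member, at a mean of 42.7 ± 10.5 CPM per kb (SD, n = 12). Foxa1 followed at 9.48 ± 6.90, Cited1 at 8.47 ± 8.0 and Prlr at 7.45 ± 3.47 CPM per kb. Neighbours within that middle group changed places between tumours: Foxa1 exceeded Cited1 in 7 of 12 tumours and Cited1 exceeded Prlr in 6. Areg stood at 4.62 ± 4.17, Pgr at 1.58 ± 0.785 and Esr1 at 0.785 ± 0.257 CPM per kb. Gata3 exceeded Foxa1 in all 12 tumours, Prlr exceeded Areg in 10, Areg exceeded Pgr in 10 and Pgr exceeded Esr1 in 11, but in each of these pairs the ranges over tumours overlapped. Tnfsf11 was lowest, at 0.0611 ± 0.0303 CPM per kb, and its range lay apart from that of Esr1. Of the 17997 genes with an annotated length that passed the expression filter, which Tnfsf11 did not, 2.38% were below it.

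Esr1 (ENSMUSG00000019768, GRCm38 chromosome 10, 4611593 to 5005614) was at 18.8, 12.2, 12.5, 10.3, 11.7 and 3.90 CPM in Bad_WT 1 to 6 and at 9.54, 12.4, 11.3, 8.72, 8.89 and 8.44 CPM in Bad3SA 1 to 6. The 6 Bad3SA tumours lay within the Bad_WT range, whose ends were Bad_WT 1 and Bad_WT 6. The means were 11.6 ± 4.77 and 9.88 ± 1.60 CPM (SD, n = 6 each), which gave a log2 fold change of -0.23 in Bad3SA (95% interval -0.82 to 0.37, edgeR adjusted p = 0.689). Pgr (ENSMUSG00000031870, chromosome 9, 8899833 to 8968611), a classical target of ESR1, was at 21.8, 12.2, 22.5, 17.3, 11.3 and 3.33 CPM in Bad_WT and at 15.3, 11.7, 16.9, 19.8, 2.94 and 6.44 CPM in Bad3SA. Each genotype thus held low tumours: Bad_WT 6, Bad3SA 5 and Bad3SA 6. The Pgr log2 fold change was -0.27 (interval -1.28 to 0.74, edgeR adjusted p = 0.788). Prlr (ENSMUSG00000005268, chromosome 15, 10177238 to 10349180) was at 250.2, 177, 88.6, 90.2, 121 and 55.6 CPM in Bad_WT and at 107, 100.2, 118, 103, 105 and 55.5 CPM in Bad3SA. Bad_WT 1, 2 and 5 were above every Bad3SA tumour, and the other Bad_WT tumours lay within or close to the Bad3SA range. The log2 fold change was -0.41 (interval -1.08 to 0.26, edgeR adjusted p = 0.511).

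Foxa1 (ENSMUSG00000035451, chromosome 12, 57540628 to 57546916) was at 91.7, 54.2, 27.9, 24.4, 42.7 and 1.94 CPM in Bad_WT and at 19.1, 20.7, 22.9, 30.1, 26.0 and 16.7 CPM in Bad3SA. Its 6 Bad3SA values sat below the Bad_WT median of 35.3 CPM and above Bad_WT 6. Highest over lowest was 47.2-fold among Bad_WT and 1.81-fold among Bad3SA tumours. Esr1 spanned 4.82-fold and 1.46-fold and Prlr 4.50-fold and 2.12-fold in the same order, whereas Pgr spanned 6.75-fold in each genotype. Whether the spread itself differs between genotypes was not tested. The Foxa1 means were 40.5 ± 30.7 and 22.6 ± 4.89 CPM (SD, n = 6 each), which gave a log2 fold change of -0.84 (interval -2.03 to 0.35, edgeR adjusted p = 0.451). Gata3 (ENSMUSG00000015619, chromosome 2, 9857078 to 9890034) was at 219.9, 181, 121, 200.1, 149 and 89.0 CPM in Bad_WT and at 195, 193, 205, 196, 177 and 111 CPM in Bad3SA. It was the steadiest member, spanning 2.47-fold over all tumours, and the one tested member whose estimate was above 0, at 0.16 (interval -0.29 to 0.62, edgeR adjusted p = 0.708). Exons of Gata3 share 155 bases with the antisense gene Gm13256 and 77 with 9230102O04Rik on its own strand, and those of Prlr share 203 bases with Gm21973, also on its own strand. How the authors counted reads in shared bases is not known from the labels or headers.

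Areg (ENSMUSG00000029378, chromosome 5, 91139599 to 91148432) was at 7.97, 4.91, 1.67, 20.2, 6.00 and 6.03 CPM in Bad_WT and at 5.62, 3.02, 6.12, 2.76, 1.94 and 1.14 CPM in Bad3SA. Bad_WT 4, the tumour with muscle and squamous markers, was highest, and 5 of the 6 Bad3SA values were below the Bad_WT median of 6.02 CPM. The means were 7.79 ± 6.40 and 3.43 ± 2.00 CPM (SD, n = 6 each). The log2 fold change was -1.18 (SE 0.53), the furthest from 0 among the members, with an unadjusted p of 0.0441 and an edgeR adjusted p of 0.297. Without Bad_WT 4 and Bad_WT 6 it was -0.58 (edgeR adjusted p = 0.571). Tnfsf11 (ENSMUSG00000022015, chromosome 14, 78277445 to 78308043) had 5, 16, 3, 7, 13 and 5 counts in Bad_WT and 7, 13, 7, 14, 8 and 19 in Bad3SA, 49 and 68 in all. Bad_WT 3 was at the detection floor, and the genotypes overlapped. The gene did not pass the expression filter, and in a fit without the filter its log2 fold change was 0.56 (edgeR adjusted p = 0.511). RNA for its receptor RANK, from Tnfrsf11a (named for that role, outside the rule for named genes), was present, with 56.8 ± 15.2 CPM in Bad_WT against 50.7 ± 5.99 CPM in Bad3SA (SD, n = 6 each).

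Cited1 (ENSMUSG00000051159, chromosome X, 102247381 to 102252181) was at 52.0, 11.2, 8.83, 4.61, 22.9 and 0.997 CPM in Bad_WT and at 15.5, 8.42, 14.2, 5.35, 27.97 and 6.39 CPM in Bad3SA. It had the widest range of the members, 52.2-fold, and again Bad_WT 1 was highest and Bad_WT 6 lowest. The log2 fold change was -0.37 (SE 0.70, interval -1.89 to 1.15, edgeR adjusted p = 0.809). Without Bad_WT 1 it was 0.43 (edgeR adjusted p = 0.775). As a difference of mean log2 CPM with Bad_WT 1 kept, Cited1 was at 0.28, so its direction changed both with that tumour and with the measure.

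**Figure D1:**
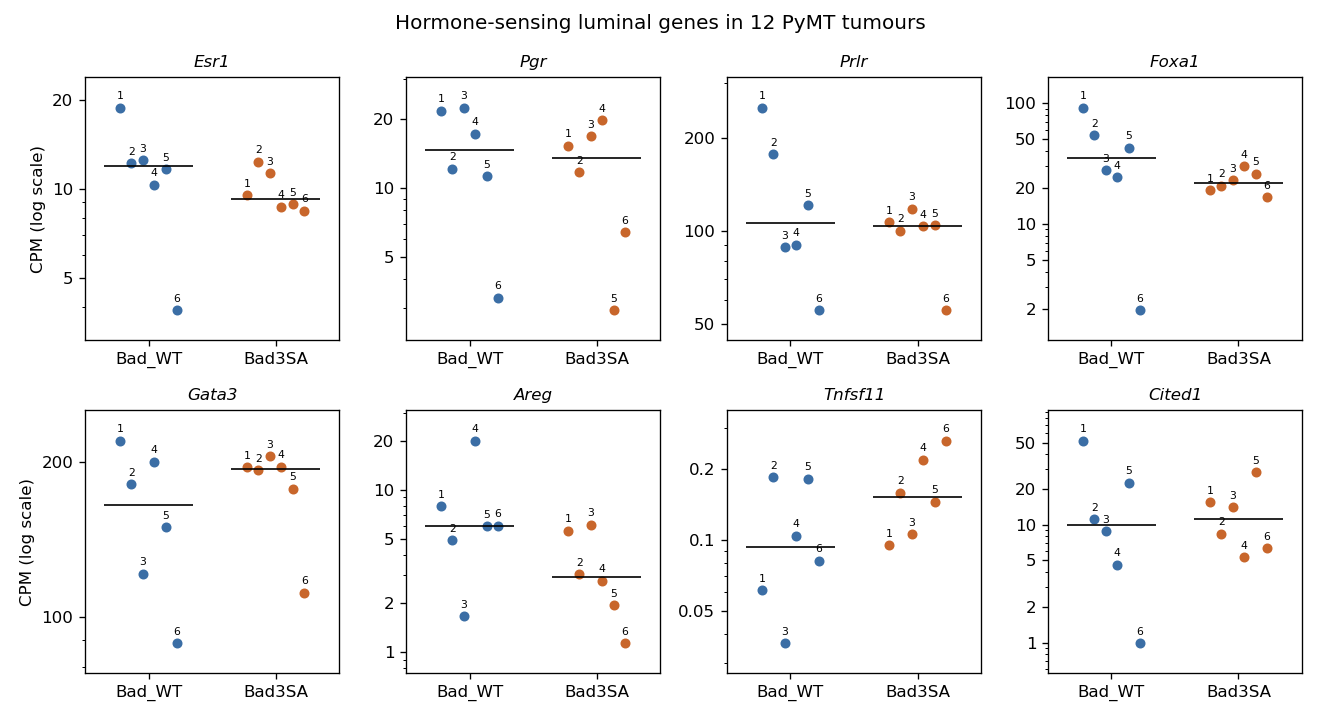
CPM on a log scale (y axis) for the 8 genes in 6 Bad_WT and 6 Bad3SA tumours (x axis); each point is a tumour, its number is beside it, and the bar is the median. Bad_WT 1 is highest and Bad_WT 6 lowest for Esr1, Foxa1, Gata3 and Cited1, and the genotypes overlap in all 8 panels.

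None of the 7 members tested passed an adjusted p of 0.05 by edgeR, where 1.38% of the 18019 genes tested did. At an unadjusted p under 0.05 there was 1 member, Areg, against 16.2% of genes. DESeq2, limma voom and the model with end-point age also called 0 members, against 4.79%, 3.21% and 0.405% of genes. The authors' deposited table likewise gives no member an adjusted p under 0.05, the smallest being 0.19 for Areg. The estimate was below 0 for 6 of 7 members and for 49.6% of all genes, and the median was -0.37 for the members and 0.0033 for all genes. No member had genotype ranges that did not overlap, against 2.23% of genes. The intervals are wide, and those of Pgr, Prlr, Foxa1 and Cited1 include both a 2-fold lower level and no change. Without Bad_WT 4 and Bad_WT 6, Foxa1 passed at -1.27 (edgeR adjusted p = 0.0474, with 1.59% of genes called) and the other 6 did not. That setting takes out the tumour with the least Foxa1. Without Bad_WT 6 alone the value was -1.10 (edgeR adjusted p = 0.116).

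**Figure D2:**
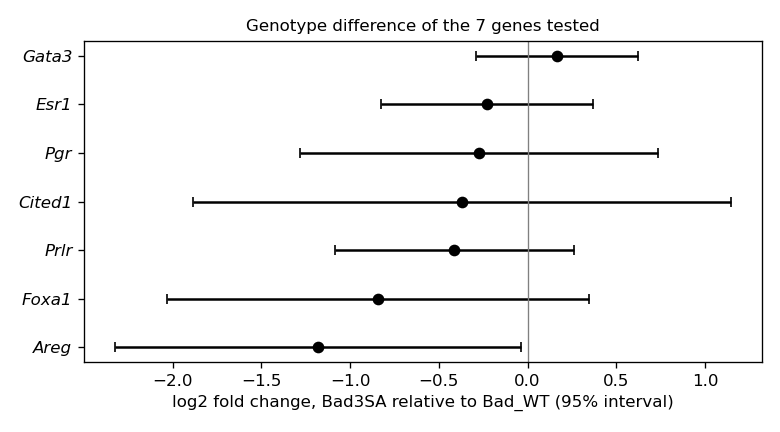
Log2 fold change in Bad3SA relative to Bad_WT (x axis) for the 7 genes tested (y axis), 6 tumours per genotype; points are edgeR estimates and bars their 95% intervals, not adjusted for the number of genes. The interval of Areg ends at -0.04, just below 0, and the other 6 include 0.

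Ratios within a tumour set each target against its regulator. Apart from 0.5 counts added to each gene, they do not depend on library size. The log2 ratio of Pgr to Esr1 averaged 0.25 ± 0.44 in Bad_WT and 0.07 ± 0.99 in Bad3SA (SD, n = 6 each), or -0.19 between them (exact two-sided permutation test, p = 0.703, adjusted over 3 ratios 0.703). Bad3SA 5 had the lowest ratio, at -1.59, and Bad3SA 4 the highest, at 1.19. Areg to Esr1 averaged -0.80 and -1.73, a difference of -0.93 (exact p = 0.197, adjusted 0.386). Tnfsf11 to Pgr averaged -6.96 and -5.98, a difference of 0.98 (exact p = 0.258, adjusted 0.386). With Tnfsf11 at few counts this ratio depends on the added counts, and with 5 added the difference was 0.76. None of the 3 ratios passed.

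Across the 12 tumours, Esr1, Prlr, Foxa1, Gata3 and Cited1 varied together, with 9 of their 10 pairs passing, and Pgr passed with Esr1. No pair with Areg or Tnfsf11 passed. Of 28 pairs, 10 passed by Pearson's r of log2 CPM (permutation test, adjusted over the 28), all with positive r and all among those 6 genes. The pair that missed among the 5 was Gata3 with Cited1 (r = 0.62, adjusted p = 0.0856), and Pgr had r of 0.29 to 0.60 with the members other than Esr1 in this group. Esr1 and Foxa1 had r = 0.92 and rho = 0.63 (permutation p = 0.00078, adjusted 0.0218). Foxa1 and Cited1 had r = 0.83 and rho = 0.52 (permutation p = 0.00315, adjusted 0.025), and Prlr and Foxa1 had r = 0.82 and rho = 0.71 (permutation p = 0.00183, adjusted 0.025). Areg had r of -0.02 with Cited1, 0.06 with Foxa1, 0.10 with Esr1, 0.30 with Pgr, 0.35 with Prlr and 0.40 with Gata3. The last was 0.83 within Bad3SA and 0.68 without Bad_WT 6 (adjusted p = 0.121). By Spearman's rho, 4 pairs had an unadjusted p under 0.05 and 0 passed after adjustment.

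The calls in this joint pattern were lost without the extreme tumours, a step that also narrows the range of values. Without the 2 tumours farthest from the median of the first gene of a pair, which were Bad_WT 1 and Bad_WT 6 for Esr1 and for Foxa1, 0 of 28 pairs passed, and r was 0.46 for Esr1 with Foxa1 and 0.25 for Foxa1 with Cited1. Prlr with Foxa1 kept r = 0.87 without its 2 farthest tumours, Bad_WT 1 and Bad3SA 6 (adjusted p = 0.0848). In the same setting Prlr had r = 0.72 with Cited1 and 0.66 with Gata3 (permutation adjusted p = 0.318 and 0.408). Without Bad_WT 6 alone, Prlr with Foxa1 was the 1 pair that passed (r = 0.89, permutation adjusted p = 0.00924). Within genotypes, Esr1 with Foxa1 had r = 0.98 among Bad_WT and -0.10 among Bad3SA tumours, and Prlr with Foxa1 had 0.88 and 0.62. The difference between genotypes in these values was not tested.

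**Figure D3:**
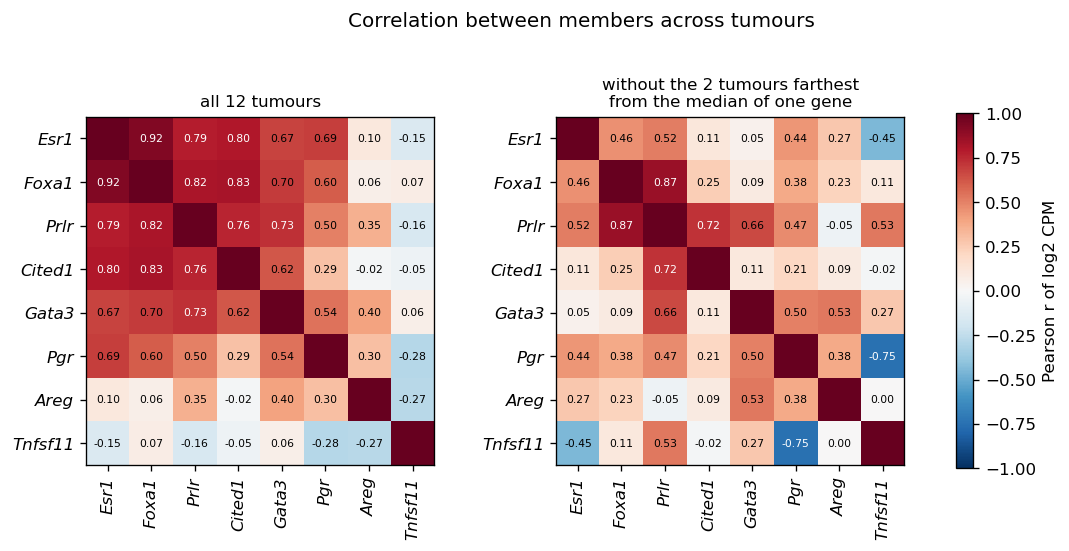
Pearson r of log2 CPM between the 8 genes over 12 tumours (left) and without the 2 tumours farthest from the median of the pair's first gene (right); colour runs from -1 (blue) to 1 (red). The block of high values among Esr1, Foxa1, Prlr and Cited1 at left, 0.76 to 0.92, falls to between 0.11 and 0.87 at right.

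A pair of promoter windows is shown, 1 for Prlr, whose relation to Foxa1 passed without Bad_WT 6, and 1 for Areg, in no pair that passed. Each is the 250 bases before a RefSeq start on GRCm38.p6, in lower case, with motif matches in capitals. The Prlr window, before the second of its 3 RefSeq starts, is chr15:10223656-10223905 on the plus strand and is shown because it held matches, which the windows of its other starts did not. The Areg window is chr5:91139349-91139598 on the plus strand.
Prlr: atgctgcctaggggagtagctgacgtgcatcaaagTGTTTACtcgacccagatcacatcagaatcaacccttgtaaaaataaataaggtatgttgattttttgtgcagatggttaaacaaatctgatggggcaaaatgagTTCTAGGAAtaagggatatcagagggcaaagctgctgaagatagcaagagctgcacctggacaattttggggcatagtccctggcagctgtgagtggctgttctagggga
Areg: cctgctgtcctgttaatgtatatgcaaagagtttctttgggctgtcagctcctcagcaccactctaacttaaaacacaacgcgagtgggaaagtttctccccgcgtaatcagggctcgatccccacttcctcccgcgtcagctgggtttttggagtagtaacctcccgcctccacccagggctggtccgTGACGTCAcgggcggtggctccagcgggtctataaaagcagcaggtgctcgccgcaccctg
In the Prlr window the capitals mark a forkhead match, TGTTTAC, starting 215 bases before the start, and a STAT match to TTCNNNGAA, 110 bases before it. In the Areg window they mark a cAMP response element, TGACGTCA, 61 bases before the start. Of 32851 windows of 250 bases, 3.17% held the forkhead letters, 7.02% the STAT letters and 1.55% the cAMP element, both strands searched. Foxa1's own window held a forkhead match on the other strand, 141 bases before its start. The full palindromic oestrogen response element, in 0.0639% of windows, was in none of the 13 member windows. The others searched were AGATAA for GATA factors (9.99%), AGGTCA, the core of that element (14%), and the palindromic element of the progesterone and glucocorticoid receptors (0.00913%). A Cited1 window held AGGTCA on the other strand and an Esr1 window the STAT letters. Both of these windows and that of Foxa1 overlap annotated exons of their own genes. Matches within 250 bases describe letters and show no binding.

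The genes most like each member across the tumours were taken as the 3 with the highest Pearson r among 12216 genes, a description over 12 tumours that share the same extremes. Closest to Foxa1 were Wnt4, a WNT ligand induced by progesterone (r = 0.95), Il18r1, an interleukin-18 receptor chain (0.94), and Itih2 (0.94). Wnt4 was at 23.7, 15.5, 10.4, 13.02, 12.04 and 0.588 CPM in Bad_WT and at 5.33, 5.51, 6.81, 9.39, 10.02 and 2.60 CPM in Bad3SA. Every Bad3SA tumour was below Bad_WT 1 to 5 but above Bad_WT 6, so all lay within the Bad_WT range of Wnt4. The Wnt4 log2 fold change was -0.92 with an SE of 0.56 (edgeR adjusted p = 0.423). Closest to Esr1 were Nrg1, an ERBB receptor ligand (0.96), Fgfr2, a fibroblast growth factor receptor (0.94), and Luzp2 (0.93). The r of Nrg1 with Esr1 was 0.91 within Bad3SA and 0.92 without Bad_WT 6.

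Pgr was followed most closely by Tmem139 (0.95), Klhl3 (0.93) and the transcription factor gene Tfcp2l1 (0.92), Prlr by Tlcd4 (0.92), Cpd, a carboxypeptidase that can be induced by prolactin (0.91), and Tmem158 (0.91). For Gata3 they were Dkkl1 (0.95), Pxk (0.93) and the claudin gene Cldn10 (0.92), and for Cited1 the fibrinogen chain gene Fgb (0.96), the uroplakin gene Upk2 (0.88) and Fgfr2 (0.86). Fam83g (0.88) and Tacc2 (0.87) were among the genes nearest Areg. None of the genes named in these 2 paragraphs passed between genotypes, their edgeR adjusted p running from 0.337852 for Luzp2 to 0.87544 for Upk2. Their log2 fold changes ran from -1.13 for Itih2 to 0.34 for Cldn10.

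**Figure D4:**
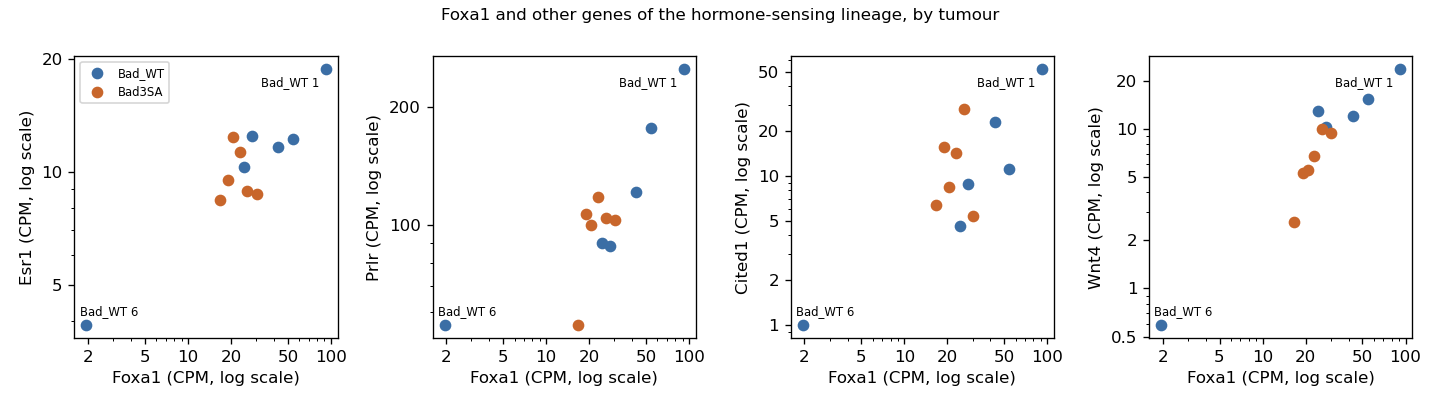
Foxa1 CPM (x axis, log scale) against Esr1, Prlr, Cited1 and Wnt4 CPM (y axes, log scale); each point is 1 of 12 tumours, blue for Bad_WT and orange for Bad3SA. Bad_WT 1 and Bad_WT 6 are labelled at the ends, and the Bad3SA tumours lie between 16.7 and 30.1 CPM of Foxa1.

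Other markers of hormone-sensing cells did not pass either. Of 11 tested, 0 passed, 9 were below 0, and the median log2 fold change was -0.37 against 0.0033 for all genes. Within the list, r with Foxa1 ran from 0.01 for Glb1l2 to 0.95 for Wnt4. The list's summed level ran from 705 to 1666 CPM in Bad_WT and from 717 to 1568 CPM in Bad3SA. Of 91 correlations between a member and the mean log2 CPM of a marker list, 13 had an unadjusted permutation p under 0.05 and 0 passed after adjustment. The strongest was Gata3 with these markers, r = 0.86 and rho = 0.73 (permutation p = 0.00133, adjusted 0.121), and r fell to 0.44 without the 2 farthest tumours. High r of Gata3 was not particular to this list. It was 0.76 with T cell, 0.71 with macrophage, 0.69 with luminal progenitor and secretory and 0.68 with basal and myoepithelial markers. With endothelial markers it was 0.19. Without the 2 farthest tumours the T cell and macrophage values were 0.80 and 0.78.

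Downstream of the oestrogen receptor, 1 of 14 tested oestrogen-responsive genes passed by edgeR: Igfbp4, which encodes an IGF-binding protein. It was the only call among the 187 genes tested over all pathway and marker lists. Of all genes, 1.38% passed in either direction and 0.76% passed lower in Bad3SA. Igfbp4 was at 376, 288, 829, 295, 287 and 335 CPM in Bad_WT and at 95.1, 211, 130, 142, 177 and 199 CPM in Bad3SA. All 6 Bad3SA values were below all 6 Bad_WT values, and genotype ranges did not overlap for 2.23% of all genes. The Igfbp4 means were 401 ± 212 and 159 ± 44.2 CPM (SD, n = 6 each), which gave a log2 fold change of -1.34 with an SE of 0.29 (edgeR adjusted p = 0.0385). With end-point age in the model the estimate was -1.63 and the call was lost (edgeR adjusted p = 0.155). It was also lost without any 1 of 8 tumours in turn (Bad_WT 1, 2 and 5 and each Bad3SA tumour except Bad3SA 2), where the adjusted p ran from 0.0506 to 0.109. By DESeq2 Igfbp4 passed (adjusted p = 0.000553), as it did in the authors' deposited DESeq2 comparison (0.000917). Of 16 alternatives, the call held in 6 and was lost in 10. The list as a whole had 8 genes above and 6 below 0 and a median of 0.09. Ccnd1, the cyclin D1 gene, Xbp1, a secretory pathway factor gene, and Greb1, a classical oestrogen target, are named here after their values were seen. Their log2 fold changes were -0.67, 0.71 and 0.82 with edgeR adjusted p of 0.0714, 0.129 and 0.371. Of these, Ccnd1 (adjusted p = 0.00804) and Xbp1 (0.0375) passed by DESeq2, and Ccnd1 by edgeR without Bad_WT 4 (0.0146).

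The other pathway lists held no gene that passed by edgeR over all 12 tumours, and by DESeq2 Fkbp5, Erbb4 and Grhl2 passed (adjusted p = 0.0245, 0.0428 and 0.0476). Among other nuclear receptors and co-regulators, 10 of 11 were below 0 with a median of -0.29 (-0.12 with end-point age in the model), and the smallest p belonged to the co-repressor gene Ncor1 (-0.30) and the glucocorticoid receptor gene Nr3c1 (-0.35). In the progesterone and RANKL list, 8 of 11 were below 0 (median -0.19), with Fkbp5, induced by progesterone and glucocorticoid, at 85.6 ± 24.5 and 54.5 ± 8.87 CPM (log2 fold change -0.65, edgeR adjusted p = 0.102). Traf6, an adaptor of RANK, was at -0.44. In the prolactin list 5 of 10 were below 0 (median 0.02), with Elf5, the alveolar transcription factor gene downstream of PRLR, at 322 ± 36.1 and 407 ± 58.7 CPM (0.34, edgeR adjusted p = 0.182), and the growth hormone receptor gene Ghr at -0.25.

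Most members of the receptor and ligand family that Areg belongs to had estimates below 0. In the amphiregulin and EGF receptor list 9 of 10 were below 0, with a median of -0.44 against 0.0033 for all genes. Erbb4 was at 6.75 ± 3.78 and 2.96 ± 1.38 CPM (-1.19, edgeR adjusted p = 0.169), and the ligand gene Btc at -0.52. With end-point age in the model the median was -0.14. Among luminal transcription factors and partners of CITED1, 12 of 17 were below 0 (median -0.09). Grhl2, an epithelial factor gene, was at -0.37 and Tfap2a at 0.35.

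The estimates of milk protein genes did not share 1 direction. In the luminal progenitor and secretory list 10 of 16 were above 0 (median 0.36) and none passed by edgeR over all 12 tumours, with the milk protein genes Wap at 6.65 ± 4.71 and 59.3 ± 92.1 CPM (3.15, edgeR adjusted p = 0.0679) and Csn1s1 at 45.9 ± 28.2 and 828 ± 1302 CPM (4.17, edgeR adjusted p = 0.0682). Csn1s1 and Csn2 passed by DESeq2 (adjusted p = 0.00192 and 0.0233), and by edgeR Csn1s1 passed without Bad3SA 2 (0.0366) and Csn2 without Bad_WT 4 (0.022). With end-point age Wap was at 1.49 and Csn1s1 at 3.49. Other milk protein genes were chosen with their values known. Csn2 and Csn1s2a were at 5.03 and 2.84 (SE 1.64 and 1.10, edgeR adjusted p = 0.173 and 0.237). Lalba and Csn3 had estimates of -0.85 and -0.36 (SE 0.73 and 0.29, edgeR adjusted p = 0.565 and 0.54). Over the list's 16 genes, 7 had an unadjusted edgeR p under 0.05 in either direction, against 16.2% of all genes. General luminal markers had a median of -0.02, with Krt19 at -0.52 and Spint1 at -0.14. Set against the mean of the general luminal markers in the same tumour, 0 of 7 members passed (exact permutation test, smallest adjusted p = 0.773, for Areg). These are differences of mean log2 CPM, not edgeR estimates. The Foxa1 difference was -0.14, and -0.21 without that scaling, and that of Cited1 was 0.35, and 0.28 without it.

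Markers of the other cells a tumour can hold were read in the same fit, and no gene of these lists passed by edgeR over all 12 tumours. Krt5, a basal keratin gene, passed without Bad_WT 4 (2.04, edgeR adjusted p = 0.0447), as did the muscle gene Myh1 (6.91, 0.0431). The median log2 fold change was 0.36 for basal and myoepithelial markers, 0.30 for fibroblast, 1.75 for adipocyte, 0.61 for T cell, 0.46 for mast cell and 0.23 for macrophage markers. With end-point age in the model the last 5 were -0.77, -0.87, 0.13, -2.08 and -0.15. Leaving out 1 tumour moved the fibroblast median between 0.03 and 0.65, the adipocyte median between 0.65 and 2.63 and the mast cell median between 0.11 and 2.05. It was -0.09 for endothelial markers and -0.08 for proliferation genes. Skeletal muscle and squamous markers had medians of -2.34 and -1.28, which became 3.47 and 3.19 without Bad_WT 4. The genes of smallest p included Cd3d, a T cell receptor chain (1.03), Fabp4, a fat cell lipid carrier (1.75), Col1a1 (0.66), Oxtr (0.62) and Bub1 (-0.44). The part of these cells in the members' values was not tested.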

How the data were processed

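Polyadenylated RNA from 12 tumours was sequenced as paired reads of 100 bases, per the labels' protocols. The authors deposited whole-number read counts per Ensembl gene. Their comparison holds a base mean signal, a log2 fold change, its standard error and Wald statistic as scores, and p-values, per the file headers. In it a positive log2 value is higher in Bad_WT, found from a Spearman correlation of -0.997 with the fold changes fitted here. Per the submitters' processing notes, the tools were STAR 2.7.9a, fastp 0.23.1 and DESeq2 and the build was GRCm38. Which tool counted the reads, and with which strand setting, is not stated in the sources used here.

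The counts were filtered with filterByExpr of edgeR 4.0.16 (18019 of 55487 genes kept), TMM-normalised and tested with the robust quasi-likelihood test, Benjamini-Hochberg adjusted, threshold 0.05. CPM are TMM-scaled. Alternatives were DESeq2 1.42.0, limma 3.58.1 voom, other scaling, filters and dispersion, end-point age, a block for the title number, and leaving out each tumour. Simulated data were used to test the fit. Correlations used log2 CPM with a prior count of 2 and 100000 permutations. Exon lengths and positions came from GENCODE release M21, promoters from RefSeq (GRCm38.p6), with windows for all 8 members. No batch is given in the labels.

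The members and the 6 pathway and 13 marker lists were chosen with earlier results of these data known. Named genes are the members, each list's passing genes (up to 4 of smallest p) or else its 2 of smallest p, and the 3 genes most like each tested member whose mean log2 CPM reached 1, without predicted models and pseudogenes. One of the genes most like Areg is not reported here, and each list's further named genes are given by its counts. Genes named outside this rule are Tnfrsf11a and those the text says were chosen with their values known, or passed under another setting. Wisp2 did not match by symbol.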

Additional observations from a re-analysis of the deposited data

Results flagged for a closer look

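Of 60 groups of 6 tumours checked, 9 held a tumour whose gap to its nearest neighbour was large for the group's range, where chance gives about 1 in 20. The groups share the same tumours, so their number cannot be set against that rate. Bad3SA 6 was low for Prlr, at 55.5 CPM, and for Gata3, at 111 CPM, against 100.2 to 118 and 177 to 205 CPM in the other Bad3SA tumours. The same tumour had the lowest summed general luminal markers (5292 CPM). Bad_WT 4 was high for Areg, at 20.2 CPM, against 1.67 to 7.97 CPM in the other Bad_WT tumours. It was also high in summed markers of skeletal muscle (1189 CPM), squamous keratinocytes (827 CPM), adipocytes (284 CPM) and mast cells (12.1 CPM). Bad3SA 5 was high in adipocyte markers (486 CPM) and low in the other nuclear hormone receptors and co-regulators (705.9 CPM). The part of these markers in the members' values was not tested.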

How the results depend on the processing

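No member was called under the 22 alternatives, with the exception of Foxa1 without Bad_WT 4 and Bad_WT 6, an alternative added after the data were seen (1 member called, log2 fold change -1.27). Directions held for Esr1, Prlr, Foxa1, Gata3 and Areg under all of these. Pgr turned to 0.10 with end-point age. Cited1 ranged from -0.75 to 0.43 with each tumour left out. The Pgr to Esr1 ratio turned to 0.15 as a difference of medians and ranged from -0.41 to 0.14 with a tumour left out. Pairs correlated numbered 0 without the 2 farthest tumours and 1 without Bad_WT 6, against 10. Pairs that changed sign were Gata3 with Tnfsf11 (-0.065 centred, -0.13 without Bad_WT 6), Areg with Cited1 (0.030 centred, 0.092 without the 2 farthest, 0.12 without Bad_WT 6), Prlr with Areg (-0.049) and Tnfsf11 (0.53) and Areg with Tnfsf11 (6.2e-05) without the 2 farthest, and Pgr with Cited1 (-0.18) and Foxa1 with Tnfsf11 (-0.24) without Bad_WT 6; the cause was not tested. List genes called were 1 of 187 tested in the edgeR fit and 8 by DESeq2, where 1.38% and 4.79% of all genes were called. They were 0 with age, 0 to 5 with a tumour left out (5 without Bad_WT 4) and 3 without Bad_WT 4 and 6. Over all genes, calls were 249, against 863 by DESeq2, 579 by limma voom, 73 with age, 105 with the block and 147 to 315 with a tumour left out. Without the filter the median log2 fold change over all genes was 0.13. Few counts limit Tnfsf11.

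The labels do not say that title numbers pair the tumours. Deviations of same-numbered tumours correlated at -0.27 to 0.28, and 2 of 12 correlated best with their own number. These correlations cannot show whether the numbers link mice. With the replicate block no member was called, Cited1 was at 0.24, 0 list genes were called and Igfbp4 had an adjusted p of 0.154 by edgeR.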
